A study of Mus musculus with 9 samples.

Results

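The genes described here are 10 markers and regulators of the switch between epithelial and mesenchymal cell states. They were chosen by symbol with earlier results of these data known: Cdh1, Cdh2, Cdh3, Epcam, Vim, Snai1, Snai2, Zeb1, Zeb2 and Esrp1. All 10 were found among the 33924 gene symbols of the count table, and all 10 passed the filter on low counts with 14772 genes tested in all. RNA was sequenced from male mouse embryonic stem cells grown on gelatin with serum and LIF. The 9 libraries fell into 3 groups of 3: JM8A cells labelled as an MLL4 knockdown (MLL4 is the enhancer H3K4 methyltransferase encoded by Kmt2d), A6 cells labelled as a UTX knockout (UTX is the H3K27 demethylase encoded by Kdm6a), and JM8A cells labelled as UTX wild type. No label explains A6 or the further number in the knockdown titles, so line or clone and perturbation cannot be told apart. Separate cultures are not stated for the replicates, and the p-values therefore measure a spread between libraries that may be technical.

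Epithelial cells hold to their neighbours through classical cadherins, calcium-dependent adhesion proteins whose tails bind catenins at adherens junctions. In an epithelial-mesenchymal transition the transcription factors of the SNAI and ZEB families repress Cdh1 and other epithelial genes through E-box sequences, E-cadherin gives way to N-cadherin, and the intermediate filament protein vimentin accumulates. Mouse embryonic stem cells grow as compact colonies with abundant E-cadherin, and exit from pluripotency during gastrulation involves this switch.

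Total counts per library lay between 18570746 and 23874816, and levels are given as CPM, read counts scaled to a common library size with TMM factors. The pluripotency marker list (Pou5f1, Sox2, Nanog and 5 others) summed to between 5743 and 6280 CPM in the libraries labelled MLL4 knockdown, between 5961 and 6546 CPM in the UTX knockout and between 4779 and 5778 CPM in wild type, with all 8 markers above 1 CPM in at least 1 library. Single markers moved both ways. At an adjusted p under 0.05, 3 rose and 2 fell against wild type in the labelled MLL4 knockdown. In the UTX knockout 0 rose and 1 fell. Among all tested genes 10.8% rose and 15.8% fell in the first, and 6.55% rose and 8.92% fell in the second. Kdm6a averaged 16.4 CPM ± 3.33 in the UTX knockout and 78.9 ± 18.9 in wild type (SD, n = 3 each; log2 fold change -2.27, SE 0.20, adjusted p = 0.000155). The MLL4 gene Kmt2d (taken to be the older symbol Mll2 in the table) averaged 72.1 CPM ± 1.21 in the libraries labelled MLL4 knockdown and 82.9 ± 37.9 in wild type (log2 fold change -0.20, SE 0.27, adjusted p = 0.624). Mll2 was not matched to an annotated gene here, so that identity is assumed. Wild type replicates 1 to 3 stood at 86.2, 43.5 and 119 CPM, and only replicate 2 lay below the labelled MLL4 knockdown. The labelled MLL4 knockdown lay wholly below the UTX knockout, a difference that missed the threshold (-0.64, SE 0.27, adjusted p = 0.0987). No loss of the Kmt2d transcript thus passed the test, and directions drawn from those libraries rest on their label. Whether the length trend of wild type replicate 2, given next, lowered its Kmt2d level was not tested. In wild type replicate 2 the log2 level fell with transcript length (-0.189 per doubling of exon length, against -0.0035 to 0.0634 in the other 8 libraries), and in wild type replicate 1 the keratin and smooth muscle genes were low, with Krt8 at 19.7 CPM against 211 and 170 in replicates 2 and 3.

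Upstream sequence is shown for Vim and Zeb2, the 2 members that differed from wild type in both perturbed groups and in opposite directions, and for Epcam, picked because its window holds E-boxes. RefSeq windows (GRCm38.p6) were matched by symbol for 4 of the 10 members, and the fourth, Snai1, is not shown. Each line gives the 250 bases before the annotated start, 5′ to 3′ on the gene's strand, with the E-box CACCTG, the sequence that SNAI and ZEB factors recognise, in capitals on whichever strand it lies. The windows lie at chr2:13574061-13574310 on the plus strand for Vim, chr2:45117443-45117692 on the minus strand for the outermost start of Zeb2 and chr17:87635729-87635978 on the plus strand for Epcam.
Vim: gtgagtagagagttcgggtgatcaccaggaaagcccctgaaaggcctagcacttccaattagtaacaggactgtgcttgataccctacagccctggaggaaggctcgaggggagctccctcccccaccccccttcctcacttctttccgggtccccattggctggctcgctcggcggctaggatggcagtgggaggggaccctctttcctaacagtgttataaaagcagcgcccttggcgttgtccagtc
Zeb2: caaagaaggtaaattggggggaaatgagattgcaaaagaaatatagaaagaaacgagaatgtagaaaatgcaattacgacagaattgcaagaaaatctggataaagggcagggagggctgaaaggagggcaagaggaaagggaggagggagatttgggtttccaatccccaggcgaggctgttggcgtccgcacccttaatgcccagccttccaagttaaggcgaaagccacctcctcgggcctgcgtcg
Epcam: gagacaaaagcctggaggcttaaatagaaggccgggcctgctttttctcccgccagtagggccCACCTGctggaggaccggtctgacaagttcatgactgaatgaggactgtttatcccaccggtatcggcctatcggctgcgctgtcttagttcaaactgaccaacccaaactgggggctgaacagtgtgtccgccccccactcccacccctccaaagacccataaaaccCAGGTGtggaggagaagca
The Epcam window holds this E-box 2 times, starting 187 and 19 bases before the start, the Snai1 window holds it once, 126 bases before the start, and the Vim and Zeb2 windows hold none. Of 32851 windows of the same length in the table, 17.2% hold at least 1 copy. These matches describe letters, not bound sites.

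In the libraries labelled MLL4 knockdown, E-cadherin and P-cadherin transcripts fell and N-cadherin rose against wild type, together with a rise of Vim, Zeb1 and Zeb2 and a fall of the epithelial splicing regulator Esrp1. Of the 10 members 7 changed, where 26.6% of all tested genes did. Of these 4 rose and 3 fell, where 10.8% of all tested genes rose and 15.8% fell. For 9 of the 10 members the libraries of the 2 groups did not overlap, where 42.9% of all tested genes showed no overlap. The median size of the log2 fold change, whatever its direction, was 0.97 over the members and 0.32 over all tested genes. The UTX knockout showed 4 changed members, where 15.5% of all tested genes changed. All 4 fell (Cdh3, Esrp1, Vim and Zeb2) and 0 rose, where 8.92% of all tested genes fell and 6.55% rose. At an unadjusted p under 0.05 a single member, Zeb1, was higher. Here 5 of the 10 members showed no overlap, where 31.5% of all tested genes did. Members were chosen with earlier results of these data known, so their counts beside these shares are not an independent test. Both comparisons share the same 3 wild type libraries. In bulk RNA, a change in the number of cells that express a gene and a change in its RNA per cell cannot be told apart.

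**Figure D1:**
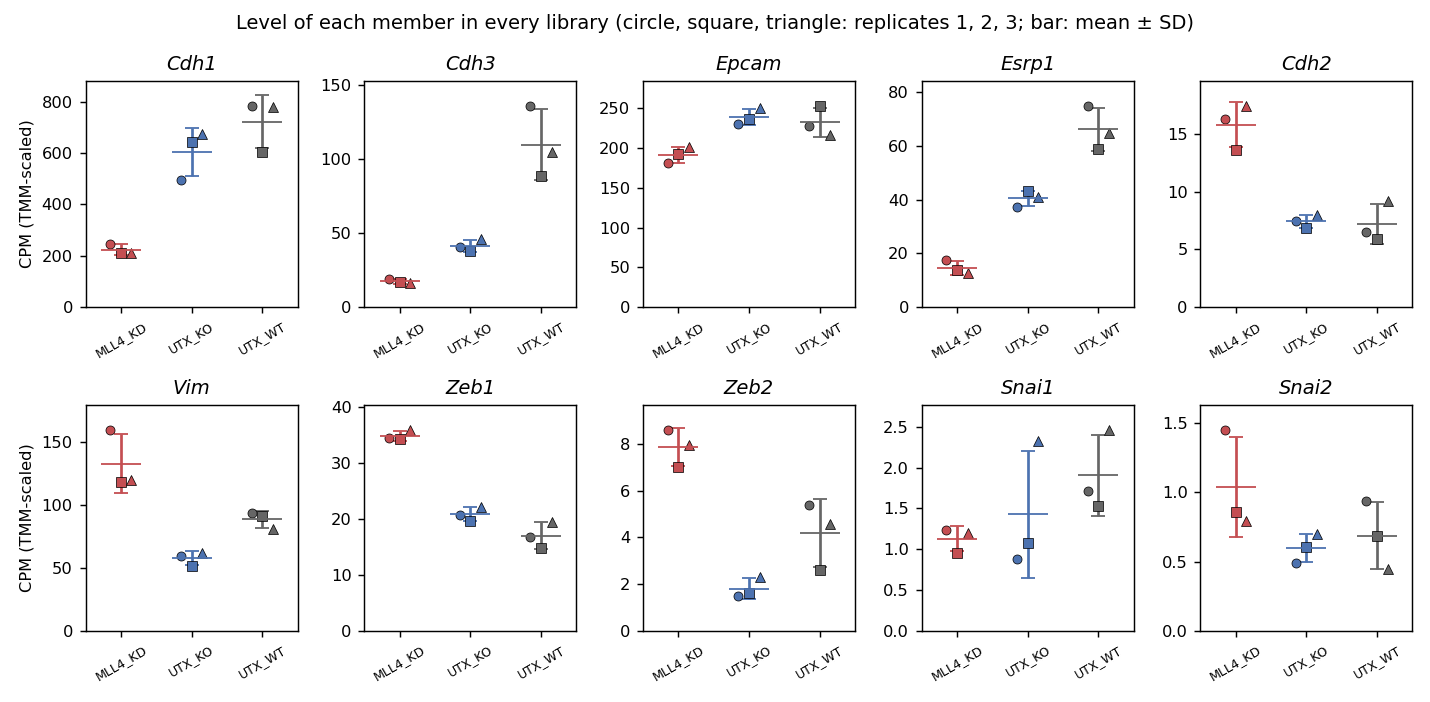
Level of each of the 10 genes in CPM (linear axis from 0) in the libraries labelled MLL4 knockdown, the UTX knockout and wild type, with points for replicates and the mean ± SD. Cdh1 lies between 211 and 247 CPM in the labelled MLL4 knockdown and at 497 CPM or more in every other library.

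Cdh1 encodes E-cadherin, the main adhesion molecule of stem cell colonies. It stood at 247, 213 and 211 CPM in replicates 1 to 3 of the labelled MLL4 knockdown, at 497, 643 and 674 CPM in the UTX knockout, and at 783, 603 and 780 CPM in wild type. The 3 labelled MLL4 knockdown libraries lay below all others, while the UTX knockout and wild type overlapped. Its level in the labelled MLL4 knockdown was 31.0% of wild type (log2 fold change -1.69, SE 0.15, adjusted p = 3.15e-05). The log2 fold change of -0.26 in UTX knockout cells missed the threshold (SE 0.15, 95% interval -0.58 to 0.06, adjusted p = 0.261). Between the perturbed groups it was -1.43 (SE 0.15, adjusted p = 0.000117), lower in the labelled MLL4 knockdown.

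Cdh3 encodes P-cadherin, a classical cadherin of placenta and basal epithelia. It stood at 19.3, 16.8 and 16.1 CPM in the labelled MLL4 knockdown, at 40.7, 37.8 and 45.9 CPM in the UTX knockout and at 136, 88.3 and 105 CPM in wild type. None of the 3 groups overlapped, and the order from lowest to highest was labelled MLL4 knockdown, UTX knockout, wild type. The fall was to 15.8% of wild type in the labelled MLL4 knockdown (log2 fold change -2.66, SE 0.17, adjusted p = 5.4e-06) and to 37.8% in the UTX knockout (-1.40, SE 0.16, adjusted p = 0.000648). The labelled MLL4 knockdown was also lower than the UTX knockout (-1.26, SE 0.16, adjusted p = 0.000391). Among all tested genes in the labelled MLL4 knockdown, Cdh3 had the 12th smallest p against wild type.

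Cdh2 encodes N-cadherin, the classical cadherin of mesoderm and neural tissue. It stood at 16.4, 13.7 and 17.4 CPM in the labelled MLL4 knockdown, at 7.51, 6.87 and 7.99 CPM in the UTX knockout and at 6.54, 5.88 and 9.18 CPM in wild type. The labelled MLL4 knockdown lay above both other groups, which overlapped with each other. It was 2.20-fold higher than in wild type (log2 fold change 1.13, SE 0.19, adjusted p = 0.00148) and 2.12-fold higher than in the UTX knockout (1.08, SE 0.19, adjusted p = 0.00191). UTX knockout and wild type differed by a log2 fold change of 0.05 (SE 0.19, 95% interval -0.37 to 0.47, adjusted p = 0.892).

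Per kilobase of annotated exon, E-cadherin remained the most abundant of the 3 classical cadherins in every library. The sum of the 3 stood at 54.8 ± 4.89 CPM per kilobase in the labelled MLL4 knockdown, 143 ± 21.0 in the UTX knockout and 184 ± 27.2 in wild type (SD, n = 3 each). Cdh1 made up 89.2% ± 0.341 of that sum in the labelled MLL4 knockdown, 92.6% ± 1.15 in the UTX knockout and 85.9% ± 1.46 in wild type. Cdh2 made up 3.59% ± 0.496, 0.658% ± 0.112 and 0.486% ± 0.0914 in the same order, and Cdh3 made up 7.23% ± 0.159, 6.72% ± 1.04 and 13.6% ± 1.55. Within each library, the ratio of Cdh1 to Cdh2 per exon length was between 21.3 and 27.4 in the labelled MLL4 knockdown, between 117 and 165 in the UTX knockout and between 150 and 211 in wild type. The ratio of the labelled MLL4 knockdown did not overlap with either other group, and those of the UTX knockout and wild type overlapped. No test was run on the ratios, since with 3 libraries a side the smallest p of an exact permutation test is 0.1.

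**Figure D2:**
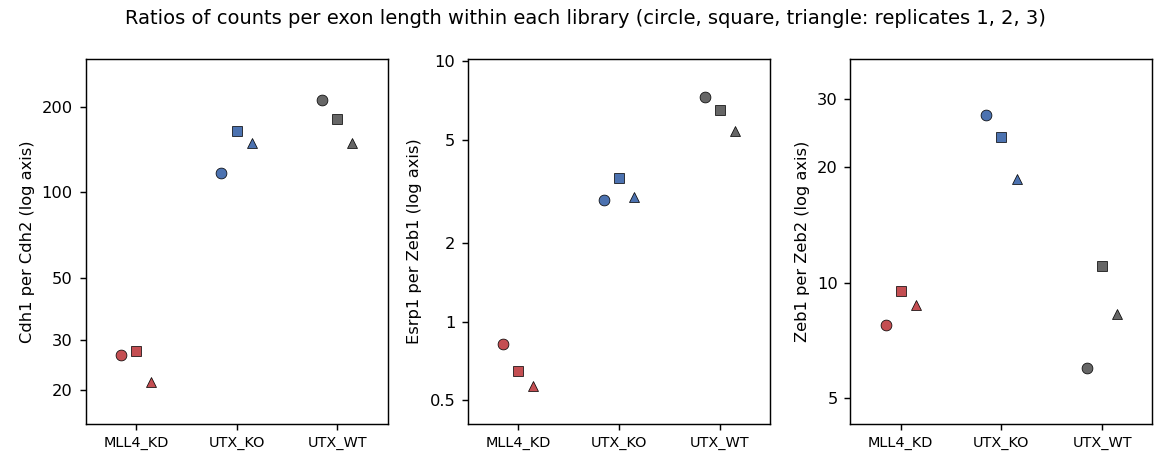
Ratio of counts per exon length between pairs of genes in each library (log axes), for Cdh1 to Cdh2, Esrp1 to Zeb1 and Zeb1 to Zeb2. In the labelled MLL4 knockdown the ratio of Cdh1 to Cdh2 is at most 27.4, against at least 117 elsewhere, and the ratio of Zeb1 to Zeb2 is at least 18.6 in the UTX knockout alone.

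Epcam encodes an epithelial adhesion molecule that binds itself across cells and is abundant in pluripotent cells. It stood at 181, 192 and 201 CPM in the labelled MLL4 knockdown, at 230, 236 and 250 CPM in the UTX knockout and at 227, 253 and 216 CPM in wild type. The labelled MLL4 knockdown lay below both other groups by less than the change of Cdh1. The difference from wild type, a log2 fold change of -0.28 (SE 0.10, 95% interval -0.50 to -0.05), missed the threshold (adjusted p = 0.0651). It passed with DESeq2 (adjusted p = 0.0342), with the stricter filter on low counts (0.0355) and with chromosome medians removed (0.0196). Against the UTX knockout Epcam fell (-0.32, SE 0.10, adjusted p = 0.0366). That call was lost on leaving out UTX knockout replicate 2 (adjusted p = 0.0944) or 3 (0.117) or any replicate of the labelled MLL4 knockdown (0.0742 to 0.14), within lane 2 (0.106) and with no filter on low counts (0.109). Between the UTX knockout and wild type Epcam had a log2 fold change of 0.04 (SE 0.10, 95% interval -0.18 to 0.26, adjusted p = 0.826).

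Esrp1 encodes an RNA-binding protein that sets epithelial exon choice in transcripts such as those of Fgfr2 and Cd44. It stood at 17.5, 13.6 and 12.6 CPM in the labelled MLL4 knockdown, at 37.4, 43.0 and 41.1 CPM in the UTX knockout and at 74.8, 58.9 and 64.8 CPM in wild type. As with Cdh3, none of the 3 groups overlapped. It was 4.55-fold lower than wild type in the labelled MLL4 knockdown (log2 fold change -2.19, SE 0.15, adjusted p = 7.8e-06) and fell to 61.3% in the UTX knockout (-0.71, SE 0.14, adjusted p = 0.00909). The labelled MLL4 knockdown was lower than the UTX knockout by 1.48 on the log2 scale (log2 fold change -1.48, SE 0.15, adjusted p = 0.000108). GENCODE places an opposite-strand gene, Gm26663, over 127 of its 6305 exon bases, and its reads cannot be told apart without a stated strand setting.

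Vim encodes vimentin, the intermediate filament of mesenchymal cells. It stood at 160, 118 and 120 CPM in the labelled MLL4 knockdown, at 59.6, 51.4 and 62.0 CPM in the UTX knockout and at 93.5, 91.1 and 80.9 CPM in wild type. The labelled MLL4 knockdown lay wholly above wild type and the UTX knockout wholly below it. Vim rose to 149.7% of wild type in the labelled MLL4 knockdown (log2 fold change 0.58, SE 0.14, adjusted p = 0.0100) and fell to 65.2% of wild type in the UTX knockout (-0.62, SE 0.14, adjusted p = 0.0134). The call in the UTX knockout ended without UTX knockout replicate 2 (-0.54, adjusted p = 0.0704). The perturbed groups differed from each other by 2.30-fold (log2 fold change 1.20, SE 0.14, adjusted p = 0.000211).

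Zeb1 and Zeb2 encode zinc finger and homeobox factors that repress epithelial genes. Zeb1 stood at 34.5, 34.3 and 36.0 CPM in the labelled MLL4 knockdown, at 20.7, 19.7 and 22.2 CPM in the UTX knockout and at 16.7, 14.8 and 19.5 CPM in wild type. The 3 groups did not overlap, and the labelled MLL4 knockdown was highest. Zeb1 rose 2.05-fold in the labelled MLL4 knockdown (log2 fold change 1.04, SE 0.13, adjusted p = 0.000273), and its log2 fold change of 0.30 in the UTX knockout (SE 0.13, 95% interval 0.01 to 0.58, adjusted p = 0.144) did not pass the test.

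Zeb2 stood at 8.61, 7.01 and 7.97 CPM in the labelled MLL4 knockdown, at 1.47, 1.60 and 2.32 CPM in the UTX knockout and at 5.401, 2.60 and 4.57 CPM in wild type. The labelled MLL4 knockdown lay above wild type and the UTX knockout below it, with no overlap. Against wild type the log2 fold change was 0.91 in the labelled MLL4 knockdown (SE 0.27, adjusted p = 0.0278) and -1.21 in the UTX knockout (SE 0.29, adjusted p = 0.0179). The perturbed groups differed by 4.36-fold (log2 fold change 2.12, SE 0.29, adjusted p = 0.000488). The rise in the labelled MLL4 knockdown lost its call without wild type replicate 2, where Zeb2 was lowest among wild type libraries (0.66, adjusted p = 0.0592), and on leaving out labelled MLL4 knockdown replicate 1 (adjusted p = 0.0803), 2 (0.0575) or 3 (0.0794). The fall in the UTX knockout lost its call without UTX knockout replicate 2 (-1.13, adjusted p = 0.0781) and in a fit of those 2 groups alone (-1.21, adjusted p = 0.0547). With the length trend removed from each library, Zeb2 kept both calls. An antisense gene, Zeb2os, overlaps 653 of the 19942 annotated exon bases of Zeb2, and Gm10125 overlaps 198 of the 10266 of Zeb1 on the opposite strand.

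Levels of the 2 paralogs were also set against each other. The ratio of Zeb1 to Zeb2 per exon length was 8.68 ± 0.862 in the labelled MLL4 knockdown, 23.3 ± 4.41 in the UTX knockout and 8.46 ± 2.52 in wild type (SD, n = 3 each). The ratio of Esrp1 to Zeb1 per exon length was 0.68 ± 0.131 in the labelled MLL4 knockdown, 3.17 ± 0.334 in the UTX knockout and 6.39 ± 0.943 in wild type, with no overlap between groups.

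Snai1 and Snai2 encode SNAIL and SLUG, zinc finger repressors of Cdh1 that start the transition at gastrulation and in the neural crest. Both were low in all 9 libraries, where read counts lay between 18 and 55 for Snai1 and between 10 and 27 for Snai2. Snai1 stood at 1.24, 0.95 and 1.20 CPM in the labelled MLL4 knockdown, at 0.88, 1.08 and 2.32 CPM in the UTX knockout and at 1.71, 1.53 and 2.46 CPM in wild type. Snai1 differed from wild type by a log2 fold change of -0.76 in the labelled MLL4 knockdown (SE 0.38, 95% interval -1.58 to 0.07, adjusted p = 0.164) and -0.41 in the UTX knockout (SE 0.37, 95% interval -1.22 to 0.40, adjusted p = 0.487). Snai2 stood at 1.45, 0.86 and 0.80 CPM in the labelled MLL4 knockdown, at 0.49, 0.61 and 0.70 CPM in the UTX knockout and at 0.93, 0.68 and 0.45 CPM in wild type. Its log2 fold change was 0.59 (SE 0.38, 95% interval -0.24 to 1.41, adjusted p = 0.278) and -0.19 (SE 0.40, 95% interval -1.06 to 0.68, adjusted p = 0.79) in the same order. These intervals give the range of changes that the counts do not exclude.

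**Figure D3:**
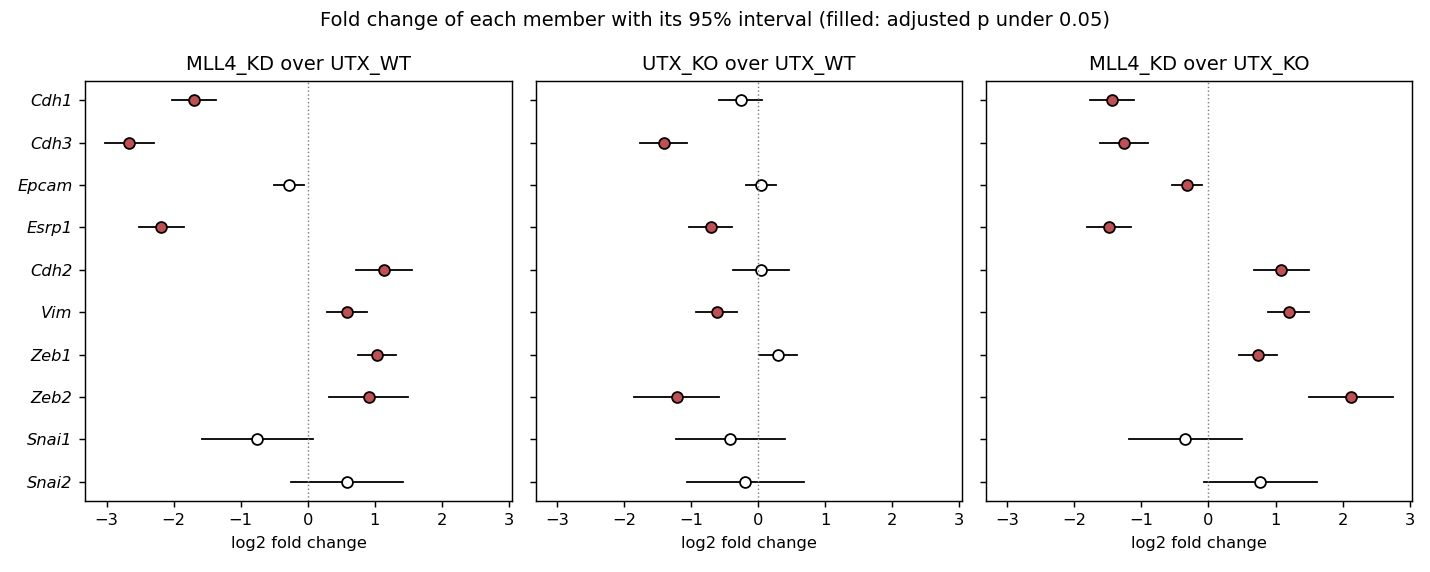
Log2 fold change of each gene with its 95% interval for the labelled MLL4 knockdown over wild type, the UTX knockout over wild type, and the labelled MLL4 knockdown over the UTX knockout; filled points passed an adjusted p of 0.05. The direct comparison has 8 filled points, and Vim and Zeb2 lie on opposite sides of 0 in the first and second panels.

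Compared directly, the labelled MLL4 knockdown differed from the UTX knockout in 8 of the 10 members, where 28.9% of all tested genes did. Cdh2, Vim, Zeb1 and Zeb2 were the 4 higher members and Cdh1, Cdh3, Epcam and Esrp1 the 4 lower ones, where 13% of all tested genes were higher and 16% lower. The log2 fold change of Zeb1 was 0.74 (SE 0.13, adjusted p = 0.00188). For 9 of the 10 members the 2 groups of libraries did not overlap, where 52.6% of all tested genes showed none. Snai1 overlapped, and Snai2 did not overlap but did not pass the test (0.77, SE 0.38, adjusted p = 0.15). Here too the counts are those of members chosen with earlier results known. This comparison sets no wild type library against either group, but its spread, filter and TMM factors were estimated over all 9 libraries.

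Replicates 1 and 3 were run in lane 2 and replicate 2 in lane 1, which holds 1 library per group and allows no test. Within lane 2 the labelled MLL4 knockdown kept 6 of 7 calls against wild type, with Cdh1 at -1.77, Cdh3 at -2.77, Esrp1 at -2.22, Cdh2 at 1.10, Zeb1 at 0.96 and Vim at 0.68 on the log2 scale, and lost Zeb2 (0.73, adjusted p = 0.142). Of the 4 UTX knockout calls 1 held within lane 2, that of Cdh3 (-1.48, adjusted p = 0.0220). Those of Vim (-0.52, adjusted p = 0.157), Zeb2 (-1.39, adjusted p = 0.0823) and Esrp1 (-0.83, adjusted p = 0.0844) did not. The number of all genes called in the UTX knockout was 74 within lane 2, against 2285 with all libraries and 3446 with the replicate block.

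Cdh1 and Cdh3 lie near each other on chromosome 8, and Esrp1 lies on chromosome 4. Expressed genes of chromosome 8 were lower as a whole in both perturbed groups, with a median log2 fold change of -0.38 in the labelled MLL4 knockdown and -0.43 in the UTX knockout over 597 genes, against medians of 0.04 and 0.01 over all expressed genes. For chromosome 4 the medians were -0.15 and -0.14 over 735 genes. For Cdh1 the UTX knockout value (-0.26) lay above the chromosome 8 median, and 70.9% of that chromosome's genes had a value as low or lower. Relative to the chromosome median, Cdh1 stood at 0.17 in the UTX knockout (adjusted p = 0.484) and at -1.31 in the labelled MLL4 knockdown (adjusted p = 0.00016). Cdh3 stood at -0.98 (adjusted p = 0.00401) and -2.28 (adjusted p = 1.15e-05) in the same order, and Esrp1 at -0.57 (adjusted p = 0.0272) and -2.03 (adjusted p = 1.16e-05). Their calls thus held with chromosome medians removed, a setting chosen after seeing the data. Between the perturbed groups the chromosome 8 median was 0.05 and that of chromosome 4 was 0.01.

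**Figure D4:**
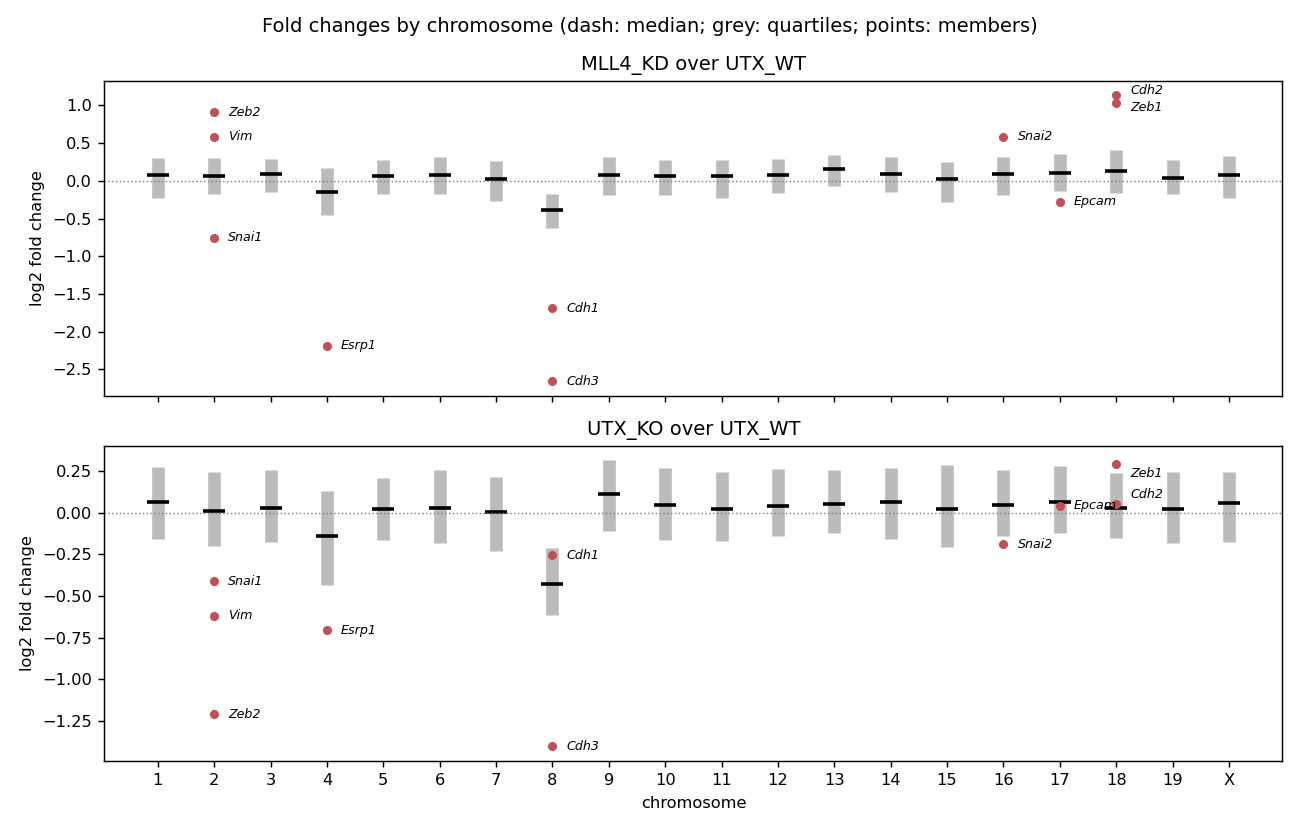
Log2 fold changes by chromosome for the labelled MLL4 knockdown over wild type (top) and the UTX knockout over wild type (bottom), with dashes for the median of expressed genes, grey bars for the quartiles and points for the 10 genes. Chromosome 8 has the lowest median in both panels (-0.38 and -0.43), and Cdh3 lies far below it in each.

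Related genes were counted by 7 lists. Over all tested genes 10.8% rose and 15.8% fell in the labelled MLL4 knockdown, and 6.55% rose and 8.92% fell in the UTX knockout. List counts are to be read beside these shares, and the lists were chosen with earlier results of these data known. Of 29 other epithelial genes tested, 20 fell and 1 rose in the labelled MLL4 knockdown, and 7 fell and 3 rose in the UTX knockout, with median log2 fold changes of -1.36 and -0.27 where those of all tested genes were -0.02 and -0.01. In the labelled MLL4 knockdown the falls of smallest p were the claudins Cldn6 (-2.60, SE 0.12, adjusted p = 7.3e-07) and Cldn4 (-1.78, SE 0.16, adjusted p = 2.86e-05), the recycling GTPase Rab25 (-3.89, SE 0.35, adjusted p = 3.79e-05) and the epithelial sorting adaptor Ap1m2 (-1.76, SE 0.19, adjusted p = 9.89e-05). The single rise was Klf4, a factor of both epithelial and naive pluripotent cells (1.47, SE 0.18, adjusted p = 0.000261). In the UTX knockout Cldn6 (-1.03, SE 0.11, adjusted p = 0.00042) and Esrp2, the paralog of Esrp1 (-1.16, SE 0.18, adjusted p = 0.00297), fell, while the epithelial factor Elf3 (1.35, SE 0.25, adjusted p = 0.00571) and the protease inhibitor Spint1 (0.75, SE 0.14, adjusted p = 0.00536) rose. With chromosome medians removed the fall of Esrp2 was smaller (-0.73, adjusted p = 0.0249) and kept its call. Krt8 fell by 3.40 on the log2 scale in both groups (SE 0.63; adjusted p = 0.00288 and 0.00589), and its 3 wild type levels spread over 19.7, 211 and 170 CPM. Without wild type replicate 1, 21 epithelial genes fell and 1 rose in the labelled MLL4 knockdown, and 10 fell and 2 rose in the UTX knockout. Without wild type replicate 2 the falls were 18 and 6, and without replicate 3 they were 15 and 7, in the same order. Leaving out a replicate of the perturbed group gave 16 to 17 falls in the labelled MLL4 knockdown and 5 to 8 in the UTX knockout. Lane 2 alone gave 11 falls and 1 rise for the labelled MLL4 knockdown, and 1 fall, that of Cldn6, and 0 rises for the UTX knockout.

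Cytoplasmic and membrane partners of the cadherins mostly did not pass the test. Of 11 adherens junction partners 1 fell and 1 rose in the labelled MLL4 knockdown and 0 changed in the UTX knockout by edgeR or DESeq2, with 2 (Jup and Pvrl3) at an unadjusted p under 0.05. The share of all tested genes that changed by edgeR was 26.6% in the labelled MLL4 knockdown and 15.5% in the UTX knockout. The fall in the labelled MLL4 knockdown was that of nectin 2, listed as Pvrl2 (-0.81, SE 0.17, adjusted p = 0.00507). The rise in the labelled MLL4 knockdown was that of Plekha7, an adherens junction linker (0.54, SE 0.16, adjusted p = 0.0270), which lost its call when wild type replicate 1 (adjusted p = 0.0543) or 2 (0.0684), or labelled MLL4 knockdown replicate 2 (0.0998) or 3 (0.0896), was left out, and with the length trend removed (0.0939). The list total for the labelled MLL4 knockdown was 1 on leaving out wild type replicate 2 or labelled MLL4 knockdown replicate 2 or 3, 4 on leaving out wild type replicate 3 or with DESeq2, 5 with the length trend removed and the replicate block, and 0 within lane 2. In the UTX knockout the list had 1 rise and 1 fall without wild type replicate 1, and 1 fall with the length trend removed and the replicate block. The beta-catenin gene Ctnnb1 gave 0.31 on the log2 scale in the labelled MLL4 knockdown (adjusted p = 0.0731) and 0.16 in the UTX knockout (0.376). The alpha-catenin gene Ctnna1 had 0.13 in both (adjusted p = 0.56 and 0.6). Desmosome genes moved both ways: of 7 tested, 2 fell and 2 rose in the labelled MLL4 knockdown, and 3 fell and 0 rose in the UTX knockout. The plaque gene Dsp fell in both (-2.68, SE 0.37, adjusted p = 0.000492, and -1.69, SE 0.35, adjusted p = 0.0091), while the desmosomal cadherin Dsg2 rose in the labelled MLL4 knockdown (0.86, SE 0.21, adjusted p = 0.0124) and fell in the UTX knockout (-0.99, SE 0.22, adjusted p = 0.0121). Without UTX knockout replicate 2 the fall of Dsg2 lost its call (adjusted p = 0.0537) and 1 desmosome gene was called there. Within lane 2 the list had 2 falls and 1 rise in the labelled MLL4 knockdown and 0 calls in the UTX knockout. Dsg2 was then called in neither comparison (0.79, adjusted p = 0.147, in the labelled MLL4 knockdown and -1.05, adjusted p = 0.142, in the UTX knockout), and Dsp lost its call in the UTX knockout (adjusted p = 0.143).

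Most changed genes that mark mesenchymal cells fell, while Cdh2, Vim and Zeb1 rose in the labelled MLL4 knockdown. Of 27 mesenchymal genes tested, 17 fell and 3 rose in the labelled MLL4 knockdown and 11 fell and 2 rose in the UTX knockout, with median log2 fold changes of -1.20 and -0.84. Among all tested genes 15.8% fell and 10.8% rose in the first, and 8.92% fell and 6.55% rose in the second. The rises in the labelled MLL4 knockdown were the membrane protease gene Mmp14 (0.86, SE 0.14, adjusted p = 0.00123), the secreted glycoprotein gene Fstl1 (0.57, SE 0.12, adjusted p = 0.00466) and the fibronectin gene Fn1 (0.89, SE 0.21, adjusted p = 0.00905). Fstl1 (0.58, SE 0.12, adjusted p = 0.008) and Fn1 (0.96, SE 0.21, adjusted p = 0.0111) were the 2 rises in the UTX knockout. The receptor kinase gene Axl fell in both (-3.34, SE 0.36, adjusted p = 0.000115, and -2.85, SE 0.35, adjusted p = 0.000947), as did the tropomyosin gene Tpm1 (-1.27, SE 0.18, adjusted p = 0.000649, and -1.87, SE 0.19, adjusted p = 0.000319). Axl stood at 1.29, 1.31 and 1.20 CPM in the labelled MLL4 knockdown, at 2.45, 1.56 and 1.35 CPM in the UTX knockout and at 6.65, 14.5 and 17.4 CPM in wild type. Markers of feeder cells or fibroblasts summed to between 3.44 and 4.87 CPM in the labelled MLL4 knockdown, between 9.47 and 10.3 CPM in the UTX knockout and between 13.7 and 24.5 CPM in wild type, with 4 of 8 (Col3a1, Dcn, Lum and Postn) under 1 CPM in every library and Lum at 0 throughout. Trophectoderm markers summed to between 67.1 and 73.6, between 81.3 and 125, and between 131 and 568 CPM in the same order, with wild type replicate 1 at 131. In wild type replicate 2, at 568 CPM, the keratins Krt8 and Krt18, also in the epithelial list, held 211 and 231 CPM. Of 8 trophectoderm markers tested, 6 fell and 0 rose in each perturbed group. Eomes averaged 14.4, 13.5 and 13.7 CPM in the same order, and Elf5 stayed under 1 CPM in every library. The part of these cell types in the falls was not tested. Without wild type replicate 1, 21 mesenchymal genes fell and 4 rose in the labelled MLL4 knockdown, and 17 fell and 3 rose in the UTX knockout. Without wild type replicate 2 the falls were 12 and 10, and without replicate 3 they were 13 and 9, in the same order. Leaving out a replicate of the perturbed group gave 11 to 14 falls in the labelled MLL4 knockdown and 8 to 11 in the UTX knockout. Within lane 2 the counts were 5 falls and 1 rise, and 1 fall and 0 rises, and Fstl1 and Fn1 were called in neither group (adjusted p between 0.0812 and 0.133). With the stricter filter, which tests fewer of the low genes, they were 10 falls and 3 rises, and 6 falls and 2 rises.

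Primitive endoderm markers summed to between 30.1 and 32.6 CPM in the labelled MLL4 knockdown, between 15.6 and 19.4 CPM in the UTX knockout and between 13.0 and 17.1 CPM in wild type. Of 6 tested, 3 rose and 0 fell in the labelled MLL4 knockdown, while the UTX knockout had 2 rises and 1 fall. Rises made up 10.8% and 6.55% of all tested genes in those 2 comparisons, and falls 15.8% and 8.92%. Foxa2 and Afp stayed under 1 CPM in every library. Mesendoderm markers summed to between 13.9 and 20.4, between 13.3 and 17.8, and between 12.4 and 19.4 CPM in the same order, and Mixl1, Gsc, Mesp1, Lhx1 and Foxa2 were under 1 CPM throughout. Neuroectoderm markers, of a tissue rich in N-cadherin, summed to between 53.5 and 65.0, between 48.3 and 56.7, and between 131 and 174 CPM, again in that order. Of 4 tested, 2 were higher and 2 lower in the labelled MLL4 knockdown than in the UTX knockout. Among all tested genes 13% were higher and 16% lower in that comparison. Nes averaged 6.64, 22.9 and 60.5 CPM in the same order of groups, and Tubb3 averaged 41.1, 23.5 and 70.9 CPM. Markers of blood and endothelium summed to between 62.6 and 69.8, between 118 and 135, and between 112 and 126 CPM, with Cdh5 and Ptprc under 1 CPM throughout. Within this sum Pecam1 averaged 28.5, 106 and 98.8 CPM, while Tek went the other way at 34.0, 14.1 and 17.1 CPM. The part of these cell types in the change of the cadherins was not tested.

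Of 9 other transcription factors of the transition that were tested, 2 rose and 2 fell in the labelled MLL4 knockdown and 0 changed in the UTX knockout by either edgeR or DESeq2, with 1 (Snai3) at an unadjusted p under 0.05. By edgeR 26.6% and 15.5% of all tested genes changed in the same order. Leaving out wild type replicate 1 gave 1 fall in the UTX knockout, and leaving out replicate 3 gave 1 rise. The zinc finger gene Klf8 rose (0.64, SE 0.16, adjusted p = 0.0130), as did Tcf4, a basic helix-loop-helix factor (0.60, SE 0.16, adjusted p = 0.0202). The call of Tcf4 ended without replicate 2 (0.0642) or 3 (0.0697) of the labelled MLL4 knockdown, and its value was 0.30 with the length trend removed (adjusted p = 0.0792). The homeobox gene Prrx2 (-1.82, SE 0.30, adjusted p = 0.00136) and Snai3 (-1.07, SE 0.23, adjusted p = 0.00671), the third SNAI family gene, fell. With chromosome medians removed Snai3 (-0.69, adjusted p = 0.0519) and Tcf4 (0.47, adjusted p = 0.0572) were no longer called. Within lane 2 the list had 0 rises and 1 fall, that of Prrx2, and Klf8 (0.52, adjusted p = 0.124), Tcf4 (adjusted p = 0.0997) and Snai3 (adjusted p = 0.101) lost their calls. Twist1, a basic helix-loop-helix factor of mesoderm, had 0.43 (adjusted p = 0.237) in the labelled MLL4 knockdown and 0.30 (adjusted p = 0.458) in the UTX knockout.

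Of 20 other cadherin genes 10 were tested. In this list 1 rose and 2 fell in the labelled MLL4 knockdown, and 0 rose and 2 fell in the UTX knockout. Beside these counts, 26.6% and 15.5% of all tested genes changed in those groups. In the labelled MLL4 knockdown Cdh13, the membrane-anchored T-cadherin, rose (3.02, SE 0.77, adjusted p = 0.0147), and Cdh10 (-1.83, SE 0.38, adjusted p = 0.00499) and the muscle cadherin gene Cdh15 (-1.52, SE 0.31, adjusted p = 0.00505) fell. Cdh13 stood at 0.75, 4.34 and 4.16 CPM in the labelled MLL4 knockdown, at 0.49, 2.64 and 2.74 CPM in the UTX knockout and at 0.16, 0.64 and 0.31 CPM in wild type, and its call was lost on leaving out labelled MLL4 knockdown replicate 2 (adjusted p = 0.0555) or 3 (0.0515). Cdh9 fell in the UTX knockout (-2.58, SE 0.42, adjusted p = 0.00349), and Cdh10 fell there (-1.54, SE 0.37, adjusted p = 0.0174), a call that ended without UTX knockout replicate 3 (0.0661). The replicate block gave 2 rises and 3 falls among these cadherins in the labelled MLL4 knockdown and 2 rises and 2 falls in the UTX knockout, where leaving out UTX knockout replicate 1 gave 2 rises and 4 falls. The stricter filter tested only 2 of these cadherins and none named here, so its 0 calls in either group could not bear on those. Within lane 2 the calls were 1 fall, that of Cdh10, in the labelled MLL4 knockdown and 0 in the UTX knockout.

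TGF-beta signalling induces the transition in many epithelia. Of 13 genes of its ligands, receptors, mediators and targets, 3 rose and 2 fell in the labelled MLL4 knockdown, and 1 rose and 2 fell in the UTX knockout. Changed genes made up 26.6% and 15.5% of all tested genes in the same order. The inhibitory Smad gene Smad7 rose in the labelled MLL4 knockdown (1.09, SE 0.14, adjusted p = 0.00032), as did the common mediator Smad4 (0.43, SE 0.10, adjusted p = 0.00831) and the corepressor gene Ski (0.70, SE 0.17, adjusted p = 0.0111). The ligand gene Tgfb1 fell there (-1.64, SE 0.42, adjusted p = 0.0152), a call that ended without wild type replicate 3 (0.0534) or replicate 2 (0.0522) or 3 (0.0592) of the labelled MLL4 knockdown. The co-receptor gene Tgfbr3 rose in the UTX knockout (1.12, SE 0.20, adjusted p = 0.00547), and the ligand gene Tgfb2 fell (-2.95, SE 0.70, adjusted p = 0.0175), which was no longer called after leaving out wild type replicate 3 (0.0543), UTX knockout replicate 2 (0.0659) or UTX knockout replicate 3 (0.0726). Within lane 2 the list had 1 rise, that of Smad7, and 1 fall in the labelled MLL4 knockdown and 0 calls in the UTX knockout.

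**Figure D5:**
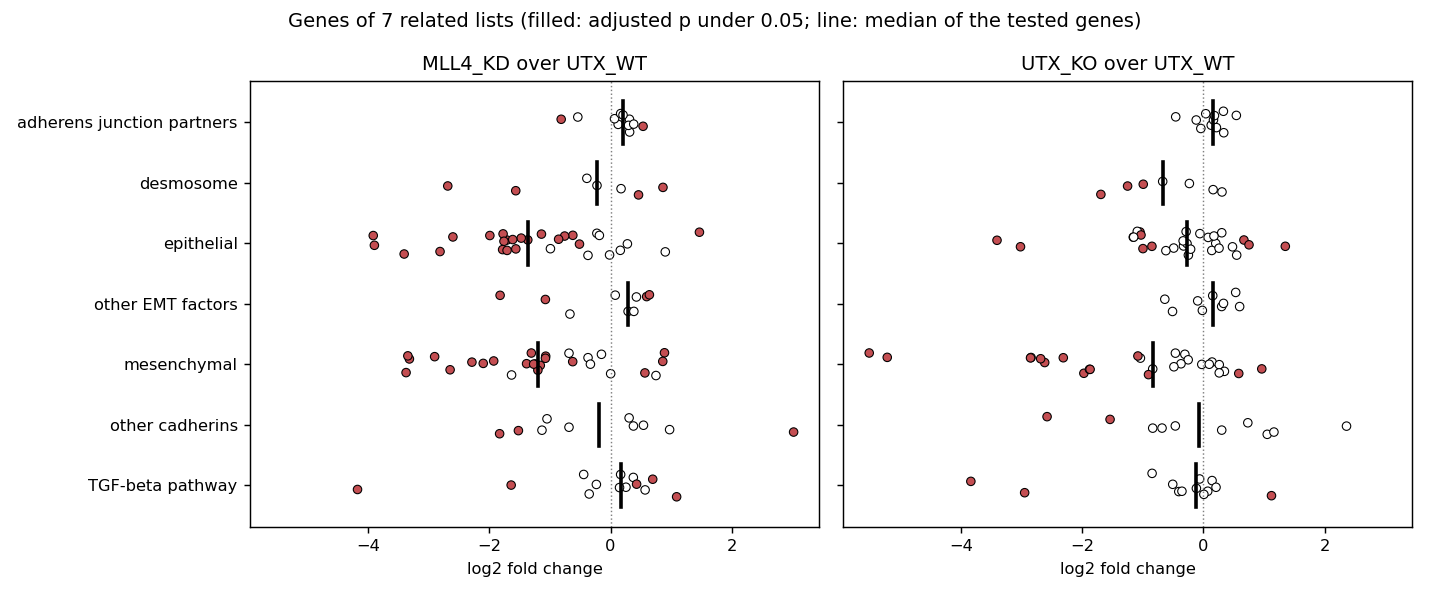
Log2 fold change of each tested gene of 7 related lists in the labelled MLL4 knockdown over wild type (left) and the UTX knockout over wild type (right), with lines for the list medians; filled points passed an adjusted p of 0.05. The medians of the epithelial (-1.36 and -0.27) and mesenchymal (-1.20 and -0.84) lists both lie below 0.

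Across the 9 libraries, log2 CPM of Cdh1 correlated most closely with that of Mapk8ip2 (Pearson's r 0.988), Nr6a1 (0.986), Nedd4l (0.986) and Ccdc113 (0.986). That of Vim correlated most closely with Hmgn2 (0.976), Nmnat1 (0.975), Cul1 (0.973) and Ncs1 (0.972). Among the members themselves r was 0.98 between Cdh1 and Esrp1, 0.96 between Cdh2 and Zeb1 and 0.93 between Vim and Zeb2. These values describe 9 libraries that share 3 groups, their lanes and their depth, and largely repeat the differences between the groups.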

How the data were processed

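RNA was measured in 9 libraries of mouse embryonic stem cells prepared with a TruSeq RNA kit, per the labels. The authors deposited raw read counts per gene symbol, 1 column per library. Per the submitters' processing notes, the tools were STAR 2.4 and HTSeq 0.6.1; those notes list mm9 and hg19 as builds without saying what each served. Neither annotation nor strand setting is given in the sources used here. Columns were matched to libraries by title.

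Counts were tested with edgeR 4.0.16 (R 4.3.3): filterByExpr by group (14772 of 33924 genes), TMM factors, two-sided quasi-likelihood test over the 9 libraries by group, Benjamini-Hochberg adjusted p under 0.05 over all tested genes. CPM and log2 CPM (prior count 2) were computed here. The fit was tested on simulated independent libraries, which held no length trend and no shared deviation of same-numbered libraries. Alternatives were DESeq2 1.42.0, its size factors, 2 filters, the 2 groups alone, lane 2, a length correction, leaving out each library, the replicate block and, chosen after seeing the data, removal of chromosome medians and counts of each related list under every alternative. Depth was 18570746 to 23874816 counts per library, and replicates differed by more than sampling noise (chi-square over its degrees of freedom 6.67 to 61.0). Intervals are 95% intervals of the fitted log2 fold change, with a width set by the spread between libraries. Same-numbered libraries deviated together (correlations across genes 0.168 to 0.467), and some differently numbered ones did too (up to 0.226). The main fit did not use the numbers as pairs, which entered only the fits with the replicate block. Exon lengths and chromosomes came from GENCODE vM21 (GRCm38), matched by symbol for 98.0% of tested genes, so values per length are approximate for counts on another build. The stricter filter kept genes with at least 5 CPM in 3 libraries.

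The members and lists were chosen with earlier results of these data known. The members, the targeted genes, up to 4 changed genes of smallest p per direction from each related list and the 4 genes most correlated with Cdh1 and Vim, leaving out clone and model names, could be named; list genes given are a selection of these. Catenin genes, Twist1 and markers are named beyond that rule, chosen after their values were seen. Sox1 and 1 gene counted in the TGF-beta list are not reported here.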

Additional observations from a re-analysis of the deposited data

How the results depend on the processing

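The falls of Cdh1, Cdh3 and Esrp1 and the rises of Cdh2, Vim and Zeb1 in the labelled MLL4 knockdown against wild type kept direction and call under all 16 alternatives, as did the fall of Cdh3 in the UTX knockout and, between the perturbed groups, the 7 calls other than Epcam. The replicate block changed no call of a member, and with it 4 members changed in the UTX knockout, 7 in the labelled MLL4 knockdown and 8 in the direct comparison. Of the 2285, 3930 and 4275 genes called in those 3 comparisons, 2285, 3928 and 4272 were among the 3446, 5037 and 5417 called with the block. Counts of all genes called moved by more than 1.5 times in these cases, and the cause was not tested. In the UTX knockout they were 3446 with the replicate block and 4121 with length trend and block together. They were 1240 there with only the 2 groups and 74 within lane 2. Within lane 2 they were 1341 in the labelled MLL4 knockdown and 1535 in the direct comparison. The fits of 2 groups and of lane 2 also hold fewer libraries. Leaving out 1 library gave 833 to 2854, 2273 to 4108 and 2556 to 4062 genes in the 3 comparisons, and 2 to 4, 6 to 7 and 7 to 8 members; without UTX knockout replicate 2 the members were 2. Within lane 2, 1 member was called in the UTX knockout. Values that changed sign were never called: in the UTX knockout Cdh2 (-0.0228 within lane 2, -0.0131 with the length trend removed, -0.0034 with the block as well), Cdh1 (0.17) and Epcam (-0.0223) with chromosome medians removed. Over the libraries left out in turn, those of Cdh2 (-0.0795 to 0.27), Snai2 (-0.42 to 0.10) and Epcam (-0.0055 to 0.107) in the UTX knockout and of Snai1 (-0.59 to 0.19) in the direct comparison crossed 0. The stricter filter gave no value for Snai1 and Snai2. Low counts limit both genes.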
